A study of Mus musculus and Mus musculus musculus x Mus musculus castaneus with 52 samples.

Results

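Mouse embryonic stem cells (ESCs) that carry a heterozygous mutation of Dusp9 were compared with the wild-type XX line F121 after 24 h without LIF. The comparison rests on 3 of the 24 RNA libraries of the study: 1 each for the lines labelled Dusp9+/- 1 and Dusp9+/- 2 (clone 1 and clone 2 below) and 1 for F121. They were chosen by genotype and time alone, and no measured value entered the choice. Per the labels, F121 and both Dusp9+/- lines are female and come from a cross of Mus musculus musculus with Mus musculus castaneus. All were grown in serum with LIF and without feeder cells, and LIF was then left out of medium with 10% serum at a fixed plating density. The labels call the Dusp9+/- lines independent, but give neither the mutated part of the gene nor the line from which the clones were made, so a difference may belong to the mutation, to a clone or to F121, and these cannot be told apart. The same 3 lines at 0 h and the XY wild-type line V6.5 (Mus musculus, 1 library at 0 h and 1 at 24 h) complete the experiment of 8 libraries. The labels list a library and a technical repeat for each line and time, and the deposited table holds 1 column for each such pair. The whole series held 52 samples, of which 32 were RNA samples.

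LIF signals through JAK kinases and Stat3 to keep mouse ESCs from differentiating, and FGF signalling through the kinase ERK drives their exit from that state once LIF is gone. Dusp9 lies on the X chromosome and encodes a phosphatase that removes phosphate from ERK, so female ESCs, in which both X chromosomes are active, carry more of it than male ones. Naive pluripotency genes fall and formative genes rise early in this exit, whereas trophoblast genes belong to the placental lineage that normal ESCs do not readily form.

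Values are log2 CPM, that is, a gene's reads relative to the scaled library size on the log2 scale, and a gene with 0 reads stands at -2.45. The libraries at 24 h held 11937335 reads in F121, 12374559 in clone 1 and 11424744 in clone 2. Dusp9 itself stood at 7.84 log2 CPM in F121, 7.71 in clone 1 and 6.58 in clone 2, and at 0 h at 6.93, 5.96 and 7.43. The clone with the lower value was clone 2 at 24 h and clone 1 at 0 h, and the difference from F121 at 24 h did not pass (-0.69 ± 0.66, adjusted p = 0.547, fitted with limma). Chromosome 12 showed the same exchange. Over its 465 tested genes the median difference from F121 was 0.52 in the 0 h library labelled clone 1 and 0.48 in the 24 h library labelled clone 2, against 0.07 and 0.06 in the other two. Across all 14335 genes the difference of clone 1 minus clone 2 at 0 h correlated negatively with that at 24 h (r = -0.365 across genes, which are not independent replicates). The clone numbers may therefore not name the same line at both times, so "clone 1" and "clone 2" below mean the libraries with those labels, and no change over time is followed within a numbered clone. The mean of both clones does not depend on which is which.

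**Figure D1:**
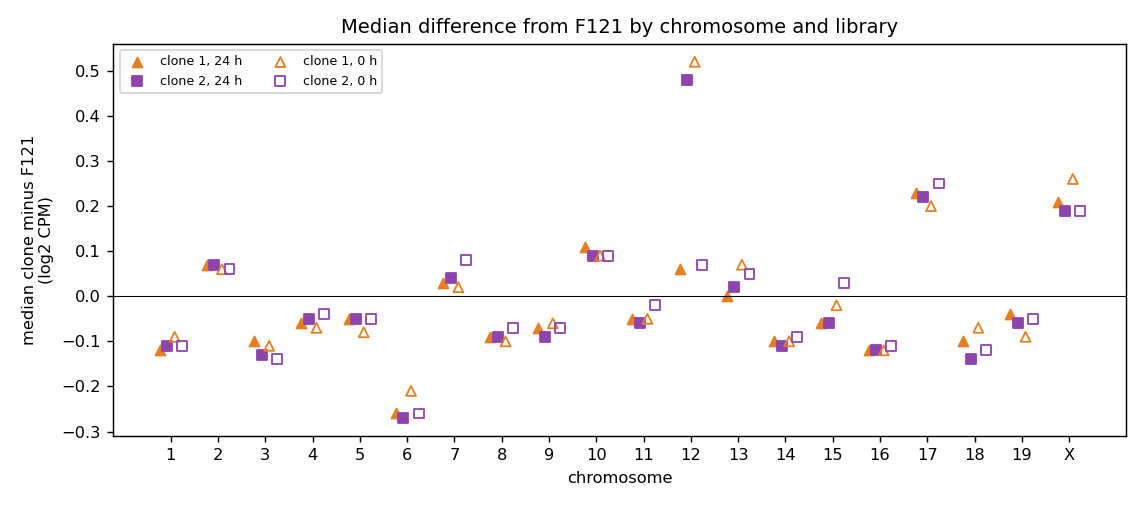
Median difference from F121 (y axis, log2 CPM) over the tested genes of each autosome and the X (x axis), for the libraries labelled clone 1 (triangles) and clone 2 (squares) at 24 h (filled) and 0 h (open). On chromosome 12 the high library is clone 1 at 0 h (0.52) and clone 2 at 24 h (0.48), whereas on the other autosomes and the X the 4 libraries lie close together.

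Of the 14335 genes tested (averaging 1 CPM or more over the withdrawal libraries), both clones lay above F121 in 5772 and below it in 6304. Both clones are set against the same F121 library, whose own deviations add to these counts, so they are a description. The median absolute difference was 0.265 for clone 1 and 0.292 for clone 2, against 0.131 between the clones. At least a 2-fold difference in both clones was found for 503 genes above F121 (3.51% of those tested) and 255 below (1.78%), and 0 genes passed 2-fold in opposite directions. With 2 libraries against 1 an exact permutation test cannot go below p = 0.333.

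F121 has 1 library at 24 h, so the test took the spread from the pairs of clones at both times and assumed F121 to vary as the clones do. It called 366 genes (limma, Benjamini-Hochberg adjusted p under 0.05), 225 higher (1.57%) and 141 lower (0.984%). The count was 104 without clone 1 and 1 without clone 2, the remaining call being H19. It was 13 with voom on the recovered reads, 0 with no filter on low values and 2049 with the spread of the 24 h libraries alone, and of 46 named genes called 6 kept their call with voom and 0 with no filter. Of the 503 genes 166 were also called (33.0%), and of the 255 genes 70 (27.5%).

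**Figure D2:**
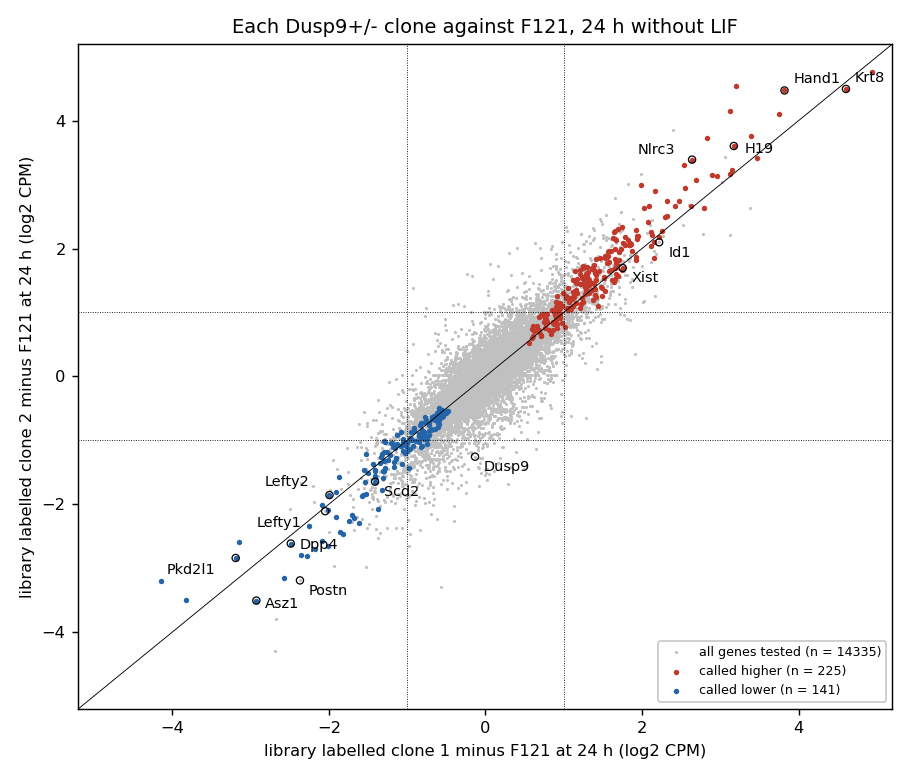
Difference from F121 at 24 h in clone 1 (x axis) and clone 2 (y axis), in log2 CPM, for 14335 genes (grey), with the 225 called higher in red and the 141 called lower in blue. Dotted lines mark 2-fold, the solid line marks equality, and circles mark genes named in the text. Most called genes lie near the line of equality, which the test favours because it takes its spread from the pairs of clones.

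Much of the difference was present before LIF was withdrawn. Of the 503 genes 414 (82.3%) had both clones above F121 at 0 h and 168 (33.4%) were already past 2-fold in both. Of the 255 genes 208 (81.6%) had both clones below F121 at 0 h and 103 (40.4%) were past 2-fold. Over all 14335 genes 598 were past 2-fold above F121 in both clones at 0 h and 355 below. The share of all genes with both clones on the same side of F121 at 0 h was not counted. In 195 of the 503 and 110 of the 255 neither clone was past 2-fold at 0 h. The 2 times use different F121 libraries, but the same lines.

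Trophoblast genes were higher in both clones. Of the 23 genes on the list 22 were in the table and 19 were tested. All 19 lay above F121 in both clones, 12 were past 2-fold in both and 9 were called, against 3.51% and 1.57% of all genes. The median difference was 1.47 in clone 1 and 1.85 in clone 2, where that of all genes was -0.02 in each. At 0 h the medians were 0.91 and 0.79. In bulk RNA a larger share of cells of one type and more RNA per cell cannot be told apart.

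Hand1, a transcription factor of trophoblast giant cells and of mesoderm, had 10 reads in F121, 181 in clone 1 and 264 in clone 2, or 0.04 log2 CPM in F121, 3.86 in clone 1 and 4.51 in clone 2. Both clones stood far above F121 (4.15 ± 0.35, adjusted p = 0.0304, 17.7-fold). Gata2 and Gata3, GATA factors that act in trophoblast, were also called. Gata2 stood at -0.72 log2 CPM in F121, 2.67 in clone 1 and 3.03 in clone 2 (3.57 ± 0.39, adjusted p = 0.0355). Gata3 stood at 0.54 log2 CPM in F121, 2.69 in clone 1 and 2.39 in clone 2 (2.00 ± 0.30, adjusted p = 0.0422). Tfap2c, an AP-2 factor needed in the trophectoderm, stood at 3.73 in F121 and at 5.42 and 6.03 in the clones (1.99 ± 0.29, adjusted p = 0.0412), after 5.72 in F121 and 6.53 and 6.14 in the clones at 0 h. The retrotransposon-derived placental gene Peg10 was among the most abundant, at 11.16 in F121 and at 12.26 and 12.21 in the clones (1.07 ± 0.15, adjusted p = 0.0377).

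Other trophoblast regulators lay above F121 without passing. Ascl2, needed for the spongiotrophoblast, stood at 2.90 log2 CPM in F121, 4.06 in clone 1 and 3.92 in clone 2 (1.09 ± 0.29, adjusted p = 0.0945), and Tead4, which specifies trophectoderm, at 4.45 log2 CPM in F121, 5.10 in clone 1 and 5.58 in clone 2 (0.89 ± 0.27, adjusted p = 0.118). Eomes (0.41 ± 0.31), Fgfr2 (0.45 ± 0.14), Ets2 (0.18 ± 0.13) and Tfap2a (0.04 ± 0.34) had smaller differences. The defining trophoblast factors Cdx2 and Elf5 were under the limit for testing. Cdx2 stood at -1.90 in F121 and at 0.76 and 1.22 in the clones, and Elf5 at -1.90, -0.16 and 1.32. Both were low in all 3 libraries, and higher in the clones than in F121.

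Among the 10 largest called increases were 4 keratins. Krt8 and Krt18 form the keratin pair of simple epithelia, and Krt7 and Krt19 are further keratins of such epithelia and of trophoblast. Krt8 had 58 reads in F121 against 1561 and 1336 in the clones, and stood at 2.35 log2 CPM in F121, 6.95 in clone 1 and 6.84 in clone 2 (4.55 ± 0.65, adjusted p = 0.0412, 23.4-fold). Krt18 stood at 4.41 log2 CPM in F121, 7.88 in clone 1 and 7.82 in clone 2 (3.44 ± 0.43, adjusted p = 0.0355). Krt7 stood at 1.15 log2 CPM in F121, 4.90 in clone 1 and 5.25 in clone 2 (3.93 ± 0.47, adjusted p = 0.0355). Krt19 stood at 2.20 log2 CPM in F121, 5.34 in clone 1 and 5.42 in clone 2 (3.19 ± 0.19, adjusted p = 0.0244). For each of these keratins the clones lay close to each other and far above F121 at 24 h, which the choice of the largest called increases favours. All were already higher in both clones at 0 h, when Krt8 stood at 2.93 in F121, 5.08 in clone 1 and 6.87 in clone 2. The pseudogene Krt8-ps, named after its values were seen, was called as well (4.85 ± 0.55), and since short reads of Krt8 and its copy can be split in counting, neither value is certain by itself.

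**Figure D3:**
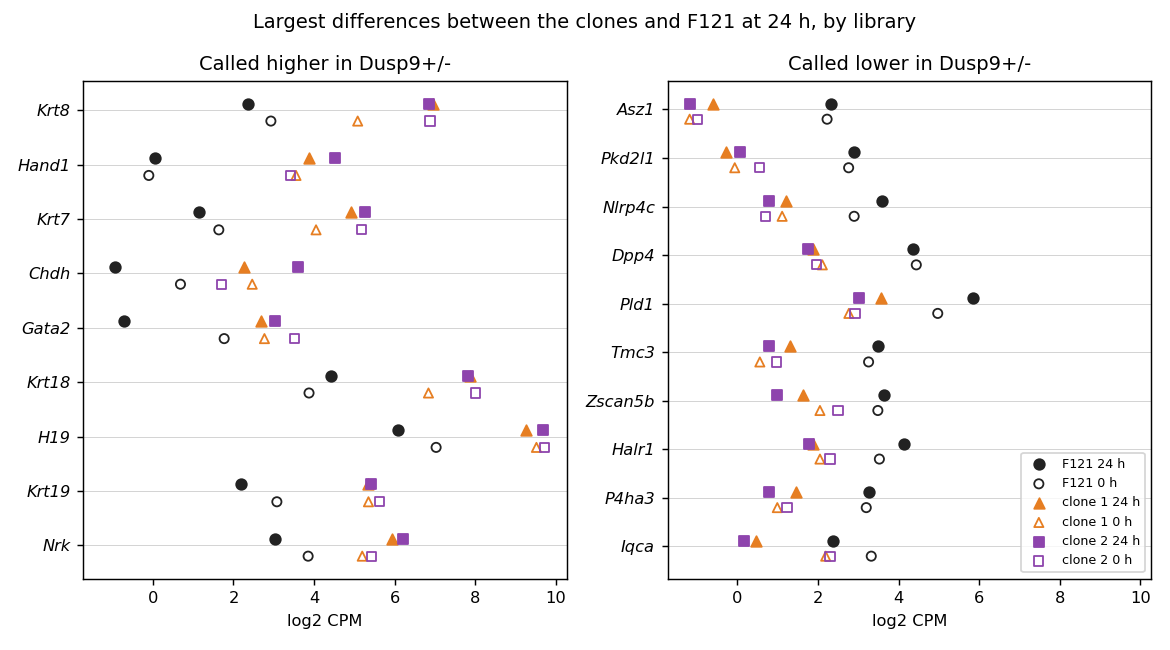
Log2 CPM (x axis) of 9 of the 10 genes with the largest called increases (left) and the 10 with the largest called decreases (right) in F121 (circles), clone 1 (triangles) and clone 2 (squares) at 24 h (filled) and 0 h (open). In each row the clones at 24 h lie nearer to each other than to F121, for example Krt19 at 5.34 and 5.42 against 2.20. The choice of called genes past 2-fold in both clones favours this.

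The wider list of epithelial junction genes and keratins was also mostly above F121. Of its 35 tested genes 29 lay above F121 in both clones, 18 were past 2-fold in both and 14 were called, all higher, against 3.51% and 1.57% of all genes. The medians were 1.06 in clone 1 and 1.39 in clone 2 (1.23 and 0.85 at 0 h). The tight junction claudin Cldn6 stood at 4.57 in F121 and at 6.40 and 6.62 (1.94 ± 0.14, adjusted p = 0.0304), and its relative Cldn7 at 2.63, 4.65 and 5.27 (2.33 ± 0.27, adjusted p = 0.0355). Dsp, the desmosomal plaque protein that binds keratin filaments, stood at 6.49 log2 CPM in F121, 7.81 in clone 1 and 7.91 in clone 2 (1.38 ± 0.12, adjusted p = 0.0304), and the plakophilin Pkp3 at 2.32 log2 CPM in F121, 3.99 in clone 1 and 4.46 in clone 2 (1.90 ± 0.30, adjusted p = 0.0436). The splicing regulator Esrp2 was called (1.48 ± 0.24, adjusted p = 0.046), whereas its relative Esrp1 was not (0.22 ± 0.19, adjusted p = 0.507). The adherens junction cadherin Cdh1 (-0.09 ± 0.10, adjusted p = 0.626), the adhesion molecule Epcam (0.09 ± 0.13, adjusted p = 0.693), the scaffold Tjp1 (-0.18 ± 0.09, adjusted p = 0.281) and the epithelial regulator Grhl2 (-0.05 ± 0.10, adjusted p = 0.811) did not pass, and were abundant in all 3 libraries. The list shares Krt7, Krt8, Krt18 and Krt19 with the trophoblast list.

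The promoters of Krt7, Krt18 and Krt8 are shown because AP-2 factors, the family of Tfap2c, bind GCCNNNGGC. Each sequence is 300 bases of RefSeq's GRCm38.p6 from 250 before to 50 after the annotated start, written along the gene, with matches to GCCNNNGGC on either strand in capitals. Krt8 and Krt18 are neighbours on chromosome 15, and Krt7 lies on the same chromosome.
Krt7 (chr15:101412153-101412452, plus strand): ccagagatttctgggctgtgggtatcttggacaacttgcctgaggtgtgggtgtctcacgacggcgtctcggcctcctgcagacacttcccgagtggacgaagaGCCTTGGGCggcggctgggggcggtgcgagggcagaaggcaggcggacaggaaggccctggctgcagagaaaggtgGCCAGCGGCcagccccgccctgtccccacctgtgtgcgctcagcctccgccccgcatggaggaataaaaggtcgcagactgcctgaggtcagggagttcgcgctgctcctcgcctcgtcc
Krt18 (chr15:102027966-102028265, plus strand): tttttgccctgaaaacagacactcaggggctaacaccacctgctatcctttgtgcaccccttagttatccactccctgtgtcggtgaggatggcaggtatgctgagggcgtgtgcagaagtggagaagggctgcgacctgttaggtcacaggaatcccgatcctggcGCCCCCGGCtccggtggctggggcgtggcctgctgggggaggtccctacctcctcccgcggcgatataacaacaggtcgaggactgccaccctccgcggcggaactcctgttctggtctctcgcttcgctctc
Krt8 (chr15:102004293-102004592, minus strand): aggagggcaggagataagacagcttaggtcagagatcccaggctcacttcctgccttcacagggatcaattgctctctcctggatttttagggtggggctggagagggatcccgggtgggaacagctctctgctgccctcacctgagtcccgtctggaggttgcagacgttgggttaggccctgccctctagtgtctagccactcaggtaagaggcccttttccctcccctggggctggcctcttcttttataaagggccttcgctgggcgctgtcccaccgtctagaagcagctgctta
Krt7 has 2 matches, Krt18 has 1 and Krt8 has 0. Of the 10489 tested genes with a promoter in RefSeq's set, 29% hold such a match, as do 29.4% of the called increases with a promoter (50 of 170) and 27.5% of the called decreases (28 of 102). On the trophoblast list 6 of the 15 genes with a promoter held one (40%), among them 4 of the 5 called. On the list of epithelial junctions and keratins it was 9 of 19 (47.4%), among them 4 of the 8 called. The 2 lists share keratins, and these shares were not tested. A match is a description of letters and not a binding site.

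Several genes outside these lists were among the largest increases. H19, an imprinted noncoding RNA abundant in placenta and fetal tissue, had the most reads of them, with 794 in F121, 7662 in clone 1 and 9539 in clone 2. Its levels were 6.07 log2 CPM in F121, 9.25 in clone 1 and 9.68 in clone 2 (3.39 ± 0.19, adjusted p = 0.0244, 10.5-fold), both clones being far above F121. Nrk, an X-linked kinase of the placenta, stood at 3.04 log2 CPM in F121, 5.93 in clone 1 and 6.19 in clone 2 (3.02 ± 0.20, adjusted p = 0.0244). Chdh, a mitochondrial choline dehydrogenase, stood at -0.94 log2 CPM in F121, 2.26 in clone 1 and 3.61 in clone 2 (3.87 ± 0.63, adjusted p = 0.0456), with the clones -1.35 apart on the log2 scale (clone 1 minus clone 2). In each of these genes both clones lay above F121 at 24 h, as the rule for choosing them requires.

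Among 36 tested imprinted genes 4 were called higher and 1 lower, against 1.57% and 0.984% of all genes, with medians of 0.19 and 0.15. Igf2, the growth factor gene next to H19, stood at 3.27 log2 CPM in F121, 5.26 in clone 1 and 6.27 in clone 2 (2.49 ± 0.38, adjusted p = 0.0434). Sfmbt2, a polycomb-group gene expressed in extraembryonic tissue, stood at 7.36 log2 CPM in F121, 8.72 in clone 1 and 8.83 in clone 2 (1.41 ± 0.13, adjusted p = 0.0351). Mest, a hydrolase gene of mesoderm, was the member called lower (-0.59 ± 0.09, adjusted p = 0.0449). Nap1l5, a nucleosome assembly protein gene, was the member past 2-fold lower in both clones (2.30 log2 CPM in F121, 0.89 in clone 1 and 0.56 in clone 2), without passing (-1.58 ± 0.41, adjusted p = 0.0924). Airn, the noncoding RNA that runs antisense to Igf2r, was above 2-fold in both clones (-0.22 log2 CPM in F121, 1.94 in clone 1 and 1.75 in clone 2) without passing (2.06 ± 0.41, adjusted p = 0.0584), and Igf2r did not pass (-0.25 ± 0.11, adjusted p = 0.218). Peg3 (0.47 ± 0.11, adjusted p = 0.0751), Snrpn (-0.11 ± 0.09, adjusted p = 0.496), Kcnq1ot1 (-0.10 ± 0.14, adjusted p = 0.71) and Impact (-0.15 ± 0.10, adjusted p = 0.376) did not pass either.

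Germline genes were lower in the clones. Of the 28 tested genes that DNA methylation is known to keep silent in somatic cells, 20 lay below F121 in both clones and 8 above. Of these 7 were past 2-fold downward in both, 2 were past it upward, and 5 were called, all lower, against 1.78%, 3.51% and 0.984% of all genes. The medians were -0.67 in clone 1 and -0.99 in clone 2, and -1.04 and -1.03 at 0 h. V6.5 had a median of -1.03 against the same F121 library. The list's summed level was 914 CPM in F121, 632 in clone 1 and 596 in clone 2.

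Asz1, which acts in the piRNA pathway of germ cells, showed the largest named decrease. It had 57 reads in F121, 6 in clone 1 and 3 in clone 2, or 2.32 log2 CPM in F121, -0.60 in clone 1 and -1.18 in clone 2 (-3.22 ± 0.41, adjusted p = 0.0357). Dazl, an RNA-binding protein of germ cells, stood at 5.72 log2 CPM in F121, 4.76 in clone 1 and 4.58 in clone 2 (-1.05 ± 0.15, adjusted p = 0.0412). Fkbp6, a cochaperone of meiosis and the piRNA pathway, stood at 5.02 log2 CPM in F121, 3.80 in clone 1 and 3.79 in clone 2 (-1.23 ± 0.18, adjusted p = 0.0412). Piwil2, a PIWI protein (-0.87 ± 0.14, adjusted p = 0.0467), and Gpat2, an acyltransferase of the testis (-1.02 ± 0.17, adjusted p = 0.0478), were the other two called. The meiotic genes Hormad1 (-1.19 ± 0.37, adjusted p = 0.127), Tex11 (-1.11 ± 0.24, adjusted p = 0.07) and Syce1 (-0.90 ± 0.32, adjusted p = 0.163) lay below F121 in both clones without passing, and the helicase Ddx4 (0.76 ± 0.27, adjusted p = 0.158) lay above it. The homeobox genes Rhox6 (1.75 ± 0.40, adjusted p = 0.075) and Rhox9 (2.04 ± 0.51, adjusted p = 0.0863), which are also placental, were past 2-fold upward in both clones without passing.

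The promoters of the called germline genes with the largest decreases are shown because many germline genes carry the E-box CACGTG, which is in capitals.
Asz1 (chr6:18109012-18109311, minus strand): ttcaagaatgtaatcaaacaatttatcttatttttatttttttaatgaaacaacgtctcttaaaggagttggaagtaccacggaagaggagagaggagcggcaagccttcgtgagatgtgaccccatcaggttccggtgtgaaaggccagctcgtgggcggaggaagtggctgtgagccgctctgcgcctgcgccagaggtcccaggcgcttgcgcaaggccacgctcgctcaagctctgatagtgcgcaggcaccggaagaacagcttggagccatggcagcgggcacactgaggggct
Fkbp6 (chr5:135349995-135350294, minus strand): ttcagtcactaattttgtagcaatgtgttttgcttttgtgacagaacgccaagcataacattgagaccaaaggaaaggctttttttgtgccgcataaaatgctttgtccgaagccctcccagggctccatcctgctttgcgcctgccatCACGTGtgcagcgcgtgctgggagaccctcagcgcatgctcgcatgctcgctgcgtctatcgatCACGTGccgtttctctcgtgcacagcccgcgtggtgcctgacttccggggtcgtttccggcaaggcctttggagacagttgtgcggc
Fkbp6, for which the first of 2 listed starts is shown, has 2 matches and Asz1 has 0. The E-box was in 12 of the 25 listed germline genes with a promoter (48%), against 11.8% of tested genes. Of the called members it was in 1 of the 4 with a promoter. It says nothing of what binds there in these cells.

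Other large decreases came from genes of varied roles. Pkd2l1, a polycystin-family cation channel, stood at 2.90 log2 CPM in F121, -0.29 in clone 1 and 0.06 in clone 2 (-3.02 ± 0.41, adjusted p = 0.0382). Dpp4, a surface peptidase, stood at 4.36 log2 CPM in F121, 1.88 in clone 1 and 1.75 in clone 2 (-2.55 ± 0.20, adjusted p = 0.0304). Pld1, a phospholipase, stood at 5.84 log2 CPM in F121, 3.56 in clone 1 and 3.03 in clone 2 (-2.55 ± 0.26, adjusted p = 0.0355). In all of these the clones lay below F121 and nearer to each other at 24 h, which the choice of called genes favours, and also at 0 h. V6.5 at 24 h stood at -2.45 for Pkd2l1, the level of 0 reads, so the size of its difference there is set by that floor. Against the same F121 library at 24 h, V6.5 had -5.35 for Pkd2l1, -2.55 for Pld1 and 0.54 for Dpp4. It was past 2-fold below F121 in 139 of the 255 genes (54.5%), against 11.0% of all genes. In 90 of the 503 (17.9%) it was past 2-fold above, against 4.95%. Both gene sets were chosen by their difference from that F121 library, so its own deviations add to these shares. The shares of all genes carry no such choice and are not a like comparison. The part of the F121 library in these differences was not tested. The remaining 6 of the 10 largest were Nlrp4c (-2.58 ± 0.35), a member of a family of near-identical oocyte genes whose reads may be shared, Tmc3 (-2.43 ± 0.36), Zscan5b (-2.33 ± 0.37), the noncoding Halr1 near the Hoxa genes (-2.29 ± 0.21), the collagen prolyl hydroxylase subunit P4ha3 (-2.14 ± 0.35) and Iqca (-2.06 ± 0.32).

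Naive pluripotency genes had medians near 0 at 24 h. Of 28 tested 10 lay above F121 in both clones and 12 below, with medians of -0.05 in clone 1 and 0.02 in clone 2. On this list 1 was called in each direction, against 1.57% higher and 0.984% lower of all genes. At 0 h the same list had been lower in the clones, with medians of -0.51 and -0.45 and 21 of the 28 genes below F121 in both. Over 24 h without LIF the list's median change was -1.26 in F121 and -0.49 in the mean of the clones, a difference that was not tested for the list. Nanog, a core factor of the naive state, stood at 7.62 log2 CPM in F121, 7.26 in clone 1 and 7.45 in clone 2 (-0.27 ± 0.12, adjusted p = 0.224), against 9.44, 8.69 and 8.56 at 0 h. Tbx3 stood at 8.28 in F121 at 0 h and at 4.52 at 24 h, and in the clones at 24 h at 4.85 and 4.92. Klf2, which sustains the naive state, was higher in both clones at 24 h without passing (5.56 log2 CPM in F121, 6.44 in clone 1 and 6.38 in clone 2, 0.85 ± 0.17, adjusted p = 0.0601).

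The called naive members were Sox15, a SOX factor also present in trophoblast, at 1.87 log2 CPM in F121, 3.53 in clone 1 and 4.14 in clone 2 (1.96 ± 0.31, adjusted p = 0.0451) and the lysosomal mannosidase Manba at 6.90 log2 CPM in F121, 6.18 in clone 1 and 6.03 in clone 2 (-0.79 ± 0.13, adjusted p = 0.0454). Over all genes 1.57% were called higher and 0.984% lower, and 3.51% and 1.78% were past 2-fold in both clones. Lists of 10 or 15 genes may therefore hold none. None of the 10 core pluripotency genes was called or past 2-fold (medians 0.07 and 0.01). On the list of LIF receptor genes and Stat3 targets 0 of 15 were called (medians 0.06 and -0.07), and Junb, described with the immediate-early genes, was the member past 2-fold.

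**Figure D4:**
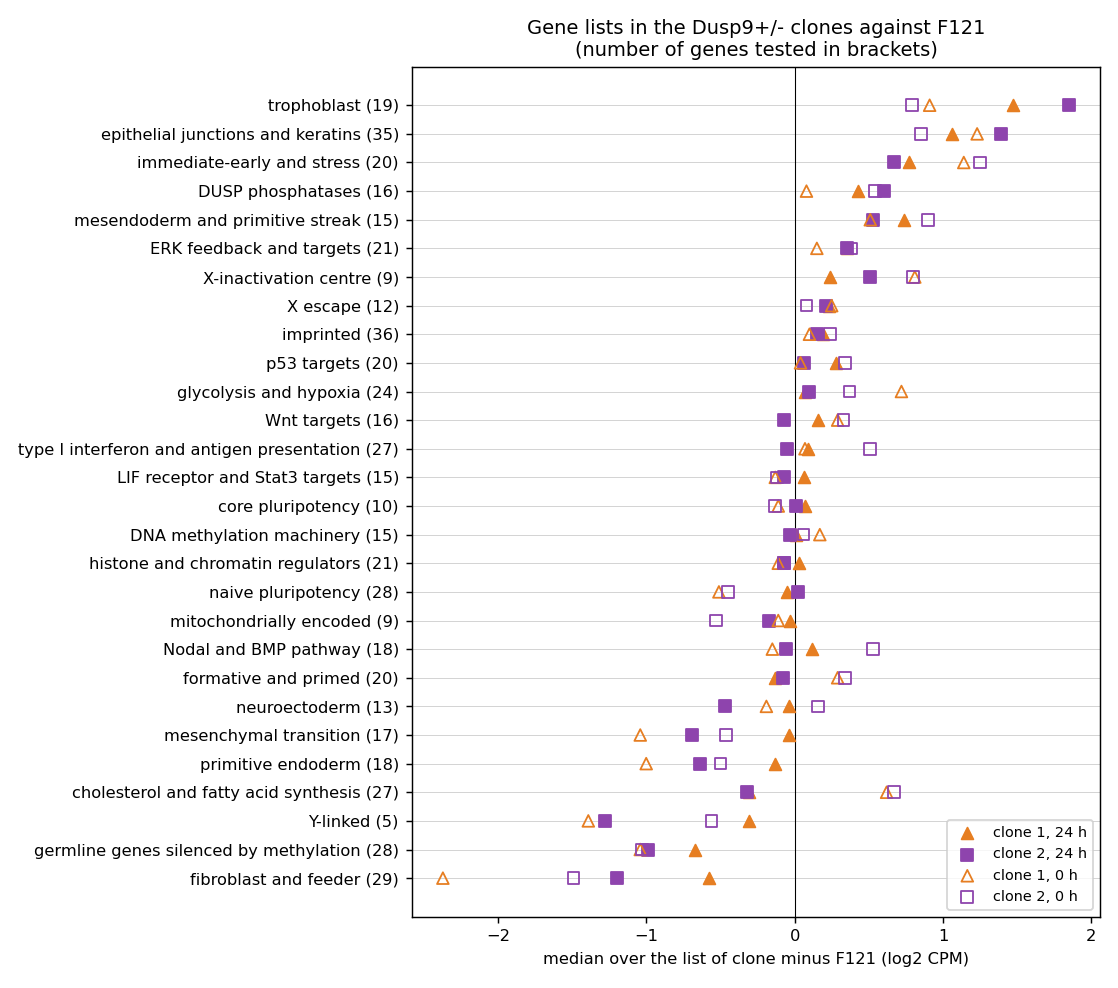
Median over each gene list of the difference from F121 (x axis, log2 CPM) in clone 1 (triangles) and clone 2 (squares) at 24 h (filled) and 0 h (open), with the number of tested genes in brackets (y axis). Trophoblast (1.47 and 1.85 at 24 h) lies highest, naive pluripotency lies near 0 at 24 h but not at 0 h, and cholesterol synthesis lies on opposite sides of 0 at the 2 times.

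Formative and primed genes likewise had medians near 0 at 24 h (-0.13 and -0.08 over 20 genes). On this list 2 were called in each direction, against 1.57% higher and 0.984% lower of all genes. The 2 called lower were the zinc finger factors Zic2 (6.43 log2 CPM in F121, 5.52 in clone 1 and 5.59 in clone 2, -0.88 ± 0.12, adjusted p = 0.0402) and Zic5 (5.55 log2 CPM in F121, 4.73 in clone 1 and 4.71 in clone 2, -0.83 ± 0.14, adjusted p = 0.046), and the 2 called higher were Krt8 and Krt18, which are on this list too. At 0 h the medians had been 0.29 and 0.34. The list's median change over 24 h was 0.67 in F121 and 0.68 in the mean of the clones, while the median over genes of the difference of the changes was -0.44. Fgf5, the classical marker of the primed epiblast, stood at 1.53 in F121 at 0 h and 6.14 at 24 h. The clones stood at 3.86 and 3.84 at 0 h and at 5.23 and 5.09 at 24 h, so they began above F121 and ended below it. The difference at 24 h did not pass (-0.98 ± 0.19, adjusted p = 0.0571), nor did the difference of the changes (-3.30 ± 0.27, adjusted p = 0.115). Otx2 (-0.09 ± 0.41, adjusted p = 0.911), Dnmt3b (0.17 ± 0.09, adjusted p = 0.297), Pou3f1 (0.08 ± 0.30, adjusted p = 0.894) and Lef1 (-0.83 ± 0.22, adjusted p = 0.0958) did not pass.

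Genes that ERK induces lay on both sides of F121, and those called were higher. On the list of ERK feedback genes and targets 13 of 21 lay above F121 in both clones and 5 below. In it 2 were called, both higher, against 1.57% of all genes, and the medians were 0.35 in each clone. Dusp6, the phosphatase that ERK induces against itself, stood at 6.01 log2 CPM in F121, 6.77 in clone 1 and 6.96 in clone 2 (0.85 ± 0.15, adjusted p = 0.0478). Phlda1, an immediate ERK target, stood at 2.67 log2 CPM in F121, 4.60 in clone 1 and 4.83 in clone 2 (2.04 ± 0.26, adjusted p = 0.0355). Ier3 was past 2-fold in both clones without passing (1.90 log2 CPM in F121, 3.28 in clone 1 and 3.08 in clone 2, 1.27 ± 0.24, adjusted p = 0.0554), and Spry4 (0.68 ± 0.16, adjusted p = 0.0801) and Dusp4 (0.97 ± 0.19, adjusted p = 0.0584) lay above F121 without passing. Other established targets had differences below 0 and did not pass. Egr1 stood at 6.33 log2 CPM in F121, 5.80 in clone 1 and 5.67 in clone 2 (-0.60 ± 0.16, adjusted p = 0.095), Etv4 had -0.15 ± 0.12, adjusted p = 0.45, Etv5 had -0.05 ± 0.13, adjusted p = 0.833 and Il17rd had -0.57 ± 0.13, adjusted p = 0.0732.

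Of 16 tested DUSP phosphatases 11 lay above F121 in both clones. The 2 called, Dusp6 and Dusp8, were higher, where 1.57% of all genes were called higher. Dusp8, which acts on JNK and p38 kinases, stood at 1.09 log2 CPM in F121, 2.92 in clone 1 and 3.23 in clone 2 (1.98 ± 0.28, adjusted p = 0.0407). Dusp14 was past 2-fold in both (2.80 log2 CPM in F121, 4.21 in clone 1 and 4.12 in clone 2) without passing (1.37 ± 0.39, adjusted p = 0.105), Dusp1 had 0.62 ± 0.12, adjusted p = 0.0549, and Dusp16, which acts on JNK, lay below F121 (-0.43 ± 0.10, adjusted p = 0.0829).

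Of 20 immediate-early and stress genes 18 lay above F121 in both clones, 5 were past 2-fold upward and 4 were called higher, against 3.51% and 1.57% of all genes. The medians were 0.77 and 0.67, and they had been larger at 0 h (1.14 and 1.25). Jun, a subunit of AP-1, stood at 3.29 log2 CPM in F121, 4.66 in clone 1 and 4.48 in clone 2 (1.28 ± 0.19, adjusted p = 0.0422). Gadd45b, a stress-induced gene, stood at 2.11 log2 CPM in F121, 4.37 in clone 1 and 4.39 in clone 2 (2.26 ± 0.24, adjusted p = 0.0355), and Klf6 (1.11 ± 0.15, adjusted p = 0.0377) and the mRNA decay factor Zfp36 (1.04 ± 0.17, adjusted p = 0.0454) were also called. Junb, the AP-1 partner that Stat3 and growth factors induce, had one of the larger differences, at 1.57 log2 CPM in F121, 4.18 in clone 1 and 4.25 in clone 2, but did not pass (2.64 ± 0.70, adjusted p = 0.0952). Its clones stood at 3.71 and 5.63 at 0 h, so they differed more from each other there than at 24 h.

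Nodal and BMP pathway genes differed in both directions. Of 18 tested 7 were past 2-fold upward in both clones and 3 downward, against 3.51% and 1.78% of all genes. In this list 2 were called higher and 1 lower, against 1.57% and 0.984%. Lefty2, an inhibitor that Nodal induces, stood at 7.58 log2 CPM in F121, 5.58 in clone 1 and 5.72 in clone 2 (-1.92 ± 0.18, adjusted p = 0.0351). Its relative Lefty1 stood at 7.71 log2 CPM in F121, 5.66 in clone 1 and 5.60 in clone 2, with both clones far below F121, but did not pass (-2.08 ± 0.40, adjusted p = 0.0565). At 0 h F121 had stood at 6.59, between the clones at 6.37 and 7.45. V6.5 at 24 h stood at 5.30 for Lefty1 and 4.93 for Lefty2, below F121 and both clones in each case. The ligand Nodal (-0.46 ± 0.18, adjusted p = 0.195) and its coreceptor Tdgf1 (-0.63 ± 0.13, adjusted p = 0.0632) lay below F121 without passing.

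Id2, an inhibitor of bHLH factors that BMP induces, stood at 5.25 log2 CPM in F121, 6.54 in clone 1 and 6.96 in clone 2 (1.50 ± 0.25, adjusted p = 0.0474), and the inhibitory Smad6 at 1.15 log2 CPM in F121, 2.79 in clone 1 and 2.63 in clone 2 (1.56 ± 0.27, adjusted p = 0.0491). Id1 stood at 4.14 log2 CPM in F121, 6.36 in clone 1 and 6.24 in clone 2, and Id3 at 3.26 log2 CPM in F121, 5.38 in clone 1 and 5.70 in clone 2. Both clones lay well above F121 for Id1 and Id3, neither of which passed (2.16 ± 0.46, adjusted p = 0.0673 and 2.28 ± 0.55, adjusted p = 0.0836). The ligand Bmp4 (1.02 ± 0.24, adjusted p = 0.0767) and the targets Msx1 (1.08 ± 0.30, adjusted p = 0.101) and Msx2 (1.69 ± 0.45, adjusted p = 0.0967) were past 2-fold in both clones without passing.

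Wnt targets had 5 of 16 genes past 2-fold upward in both clones and 1 called, Axin2, the feedback inhibitor of the pathway, at 3.04 log2 CPM in F121, 4.28 in clone 1 and 4.27 in clone 2 (1.24 ± 0.19, adjusted p = 0.0428). Wnt3, a ligand of the primitive streak, stood at 0.54 log2 CPM in F121, 2.31 in clone 1 and 2.44 in clone 2 (1.83 ± 0.55, adjusted p = 0.12), which did not pass. The Wnt list had 7 genes above F121 in both clones and 7 below, with medians of 0.16 and -0.07. Of 15 mesendoderm and primitive streak genes 6 were past 2-fold upward and 3 downward. Over all genes 3.51% were past 2-fold upward and 1.78% downward, and 1.57% were called higher and 0.984% lower. The mesendoderm genes called (Hand1, Axin2 and Lefty2) are described above. The defining mesendoderm markers were low in all 3 libraries. T stood at -0.53, 0.61 and 0.47, Mixl1 at -1.20, -0.29 and -0.35, Foxa2 at -0.72, -0.60 and -0.93, and Gsc had at most a few reads.

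Genes of cholesterol and fatty acid synthesis were lower in the clones at 24 h and had been higher at 0 h. Of 27 tested 24 lay below F121 in both clones at 24 h, where 6304 of all 14335 genes did. Of these 5 were called, all lower, against 0.984% of all genes, and the medians were -0.31 and -0.32. At 0 h 22 of the 27 lay above F121 in both clones, with medians of 0.62 and 0.67. The median change over 24 h was 0.09 in F121 and -0.93 in the mean of the clones. Scd2, a stearoyl-CoA desaturase that makes monounsaturated fatty acids, stood at 9.82 log2 CPM in F121, 8.41 in clone 1 and 8.17 in clone 2 (-1.53 ± 0.13, adjusted p = 0.0304), after 9.13, 9.50 and 9.63 at 0 h. Scd1, its relative, stood at 7.02 log2 CPM in F121, 5.99 in clone 1 and 5.82 in clone 2 (-1.12 ± 0.13, adjusted p = 0.0355). Insig1, which retains the sterol sensor in the endoplasmic reticulum, stood at 5.66 log2 CPM in F121, 4.73 in clone 1 and 4.66 in clone 2 (-0.97 ± 0.12, adjusted p = 0.0358), after 5.92, 6.70 and 6.58. In each of these genes both clones lay above F121 at 0 h and below it at 24 h.

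The sterol enzymes Dhcr7 (-0.84 ± 0.11, adjusted p = 0.0355) and Msmo1 (-0.65 ± 0.11, adjusted p = 0.046) completed the called members. The sterol enzyme Hmgcs1 (-0.16 ± 0.09, adjusted p = 0.333) and the fatty acid synthase Fasn (-0.06 ± 0.21, adjusted p = 0.888) did not pass.

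**Figure D5:**
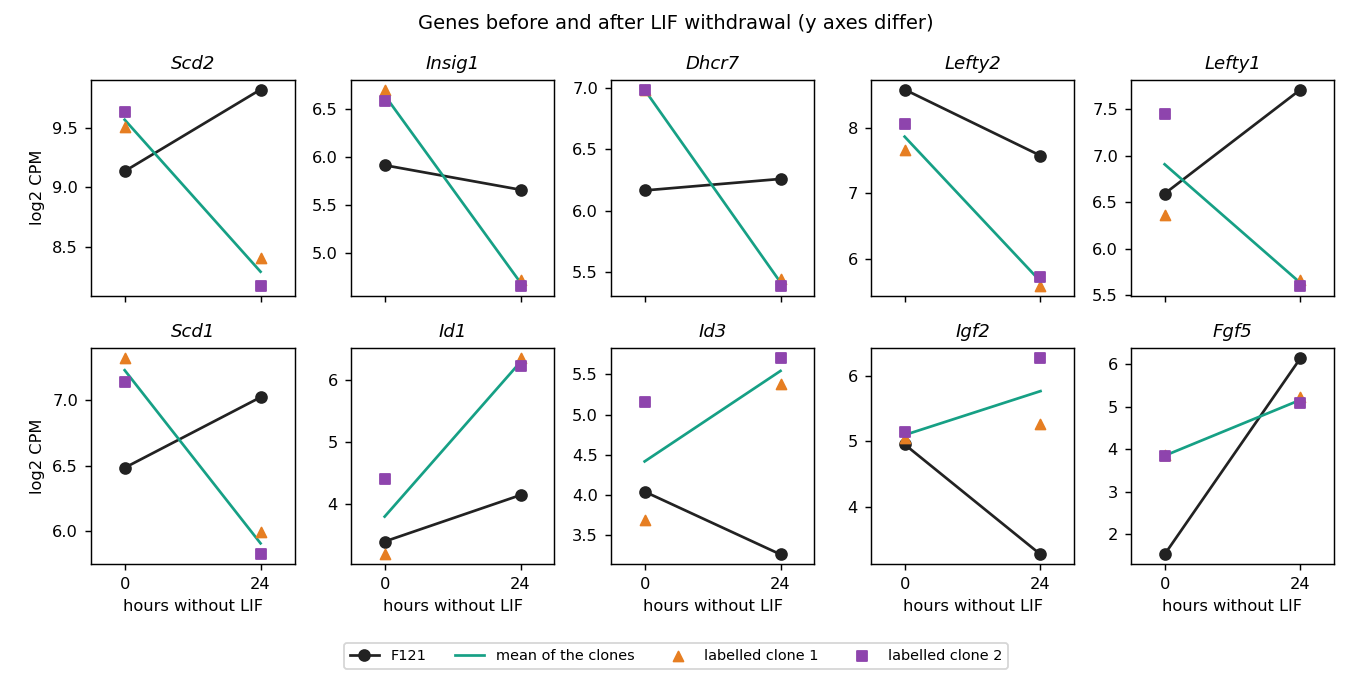
Log2 CPM (y axis, scaled per gene) at 0 h and 24 h without LIF (x axis) for 10 genes, with F121 as a black line, the mean of both clones as a green line and the libraries labelled clone 1 (triangles) and clone 2 (squares) as points. For Scd2, Insig1 and Dhcr7 the clones lie above F121 at 0 h and below it at 24 h, and for Fgf5 likewise, whereas for Id3 and Igf2 the mean of the clones is higher at 24 h than at 0 h and F121 is lower.

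Whether the response to withdrawal itself differed was tested as the change from 0 h to 24 h in the clones minus that in F121. Of 14335 genes 0 were called (0%) by limma or by voom, 1766 (12.3%) had an unadjusted p under 0.05, and the smallest adjusted p was 0.115. With the clone number as a block 0 were called, and with the numbers crossed between the times, chosen after seeing the data, 754 (346 higher and 408 lower). Scd2 had a difference of changes of -1.96 ± 0.18 (adjusted p = 0.115), Scd1 of -1.86 ± 0.19, Insig1 of -1.69 ± 0.18 and Dhcr7 of -1.66 ± 0.15, and all of these shared that smallest adjusted p. The largest positive differences were those of Nlrc3, an inhibitory NOD-like receptor (3.32 ± 0.51, adjusted p = 0.198), Thbs2, a matrix thrombospondin (2.92 ± 0.60, 0.232), and Pla2g4e, a phospholipase (2.85 ± 0.56, 0.223). The largest negative ones were those of Car4, a carbonic anhydrase (-3.49 ± 0.27, 0.115), Fgf5 (above) and Clic5, a chloride intracellular channel protein (-3.23 ± 0.46, 0.188). None of these passed in the fit without a block. Nlrc3 was called at 24 h (1.25 log2 CPM in F121, 3.89 in clone 1 and 4.64 in clone 2, 3.02 ± 0.36, adjusted p = 0.0355), whereas Car4 stood at 5.01, 5.45 and 5.32 at 24 h after 1.04 in F121 and 4.78 and 5.03 in the clones at 0 h.

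Markers of other cell types were read beside these groups, with 1.57% of all genes called higher and 0.984% lower. The fibroblast and feeder list was lower in the clones, with medians of -0.58 and -1.2, after -2.37 and -1.49 at 0 h. In it 8 of 29 were past 2-fold downward in both, against 1.78% of all genes, and 0 were called. Its summed level was 3870 CPM in F121, 3210 in clone 1 and 2010 in clone 2 at 24 h, and 6360, 2310 and 3390 at 0 h. Postn, a matrix protein of fibroblasts, stood at 3.13 log2 CPM in F121, 0.76 in clone 1 and -0.07 in clone 2 (-2.78 ± 0.68, adjusted p = 0.085). Col3a1, a fibrillar collagen, stood at 3.79 log2 CPM in F121, 2.72 in clone 1 and 1.42 in clone 2 (-1.72 ± 0.72, adjusted p = 0.208), Col1a2 had -1.95 ± 0.82, adjusted p = 0.207, and Lox, which crosslinks collagen, had -1.81 ± 0.43, adjusted p = 0.0813. The Y-linked genes, which XX cells lack, summed to 7.36 CPM in F121, 5.87 in clone 1 and 2.66 in clone 2. Ddx3y stood at 1.30, 1.31 and -0.20 in these, against 5.11 in the XY line V6.5. Eif2s3y (0.77, 0.46 and -0.93 against 5.42) and Uty (-0.22, -0.03 and -1.50 against 5.09) were likewise low, and Kdm5d was low in all 4 (0.16, -0.16, -0.71 and 0.45). The part of fibroblast or male cells in the other differences was not tested.

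Of 18 primitive endoderm genes 1 was called lower, the laminin Lama1 at 5.93 log2 CPM in F121, 4.78 in clone 1 and 4.81 in clone 2 (-1.14 ± 0.11, adjusted p = 0.0355), and 1 higher, the lipoprotein gene Apoe at 7.50 log2 CPM in F121, 8.52 in clone 1 and 8.27 in clone 2 (0.90 ± 0.14, adjusted p = 0.0451). V6.5 at 24 h stood at 4.59 for Lama1 and 7.28 for Apoe. The defining factors Gata4 (1.03, 1.40 and 1.63) and Gata6 (-0.37, -0.16 and -0.71) were low in F121 and both clones. Of 13 neuroectoderm genes 0 were called (medians -0.04 and -0.47). On the mesenchymal transition list, which like the fibroblast list had a lower summed level in the clones (2700 CPM in F121, 2150 in clone 1 and 1520 in clone 2), 1 of 17 was called, the matrix protein Tgfbi, which was lower in the clones at 4.53 log2 CPM in F121, 2.86 in clone 1 and 2.32 in clone 2 (-1.94 ± 0.29, adjusted p = 0.0412).

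The X chromosome was examined because the lines differ in an X-linked gene. Xist, the RNA that coats an inactive X chromosome, stood at 6.41 log2 CPM in F121, 8.16 in clone 1 and 8.11 in clone 2 (1.73 ± 0.19, adjusted p = 0.0355), and at 0.45 in V6.5. At 0 h it had stood at 4.24 in F121, 7.45 in clone 1 and 7.86 in clone 2, so it was higher in the clones at both times. Its antisense partner Tsix did not pass (-0.20 ± 0.14, adjusted p = 0.433), and since the counting setting for strand is not given, reads of this pair cannot be told apart with certainty. The other 7 tested genes of the X-inactivation centre were not called, among them Rlim, an activator of Xist (0.30 ± 0.13, adjusted p = 0.229). Of 555 X-linked genes tested 32 were called higher and 4 lower, against 1.57% and 0.984% of all genes. The X-linked median lay 0.241 above the autosomal median in clone 1 and 0.214 in clone 2, and 0.632 below it in V6.5, each relative to F121. Of 12 genes known to escape X inactivation 10 lay above F121 in both clones and 0 were called (medians 0.23 and 0.21). These medians were near those of all 555 tested X-linked genes (0.21 in clone 1 and 0.187 in clone 2). Of all 14335 genes 5772 lay above F121 in both clones.

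Single autosomes also stood apart from 0. Chromosome 6 had medians of -0.26 and -0.27 and chromosome 17 of 0.23 and 0.22 in clone 1 and clone 2, with -0.24 and 0.24 in V6.5 against the same F121 library. Krt8, Krt18 and Krt7 lie on chromosome 15 (medians -0.06 in each clone), whereas Asz1, Halr1 and Gata2 lie on chromosome 6. Whether copy number differs between the lines was not tested.

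The clones themselves differed at 202 genes past 2-fold. Genes higher in clone 1 were led by Cavin2, a caveolar coat protein (3.60 against 1.75 in clone 2, with 4.01 in F121), Mgp, matrix Gla protein (3.56, 1.79 and 2.92), Cd248, a receptor of stromal fibroblasts (2.86, 1.11 and 2.53), Efhc2 (5.68, 3.98 and 4.71) and the smooth muscle actin Acta2 (6.79, 5.16 and 6.77). Cavin2, Mgp, Cd248 and Acta2 were lower in clone 2, as was the summed fibroblast level, and its part in them was not tested. Genes higher in clone 2 were led by Lars2, the mitochondrial leucyl-tRNA synthetase (7.65 against 5.93 in clone 1 and 6.70 in F121), Mir6236 (7.85, 6.16 and 6.09), Chdh (above), and Syne3 (3.78, 2.33 and 1.69) and Tmem30b (3.89, 2.65 and 1.61), both on chromosome 12. In clone 2 at 0 h Lars2 and Mir6236 stood at 8.05 and 8.91. They stood at 7.72 and 8.19 in V6.5 at 24 h. The other libraries at 0 h were lower for both, at 5.90 and 5.63 in clone 1, 5.84 and 5.31 in F121 and 6.21 and 5.18 in V6.5. What the reads counted for this pair hold was not tested. With 1 library per clone the differences between the clones have no replicate check. None of the genes named here as differing between the clones passed the test against F121 other than Chdh.

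The other lists held few or no called genes, where 1.57% of all genes were called higher and 0.984% lower. Of 24 glycolysis and hypoxia genes Hk2, a hexokinase, was called lower (-0.60 ± 0.10, adjusted p = 0.0451), and Pfkl, a phosphofructokinase (0.67 ± 0.11, adjusted p = 0.0467), and Vegfa, an angiogenic factor (1.01 ± 0.15, adjusted p = 0.0412), higher, while Ndrg1 was past 2-fold in both without passing (1.29 ± 0.29, adjusted p = 0.0737). Of 20 p53 targets 0 were called, with Perp, a desmosomal protein (1.69 ± 0.30, adjusted p = 0.0518), and the apoptosis gene Bbc3 (1.41 ± 0.58, adjusted p = 0.203) past 2-fold in both. Of 21 chromatin regulators the H3K9 methyltransferase gene Ehmt2 was called higher (0.76 ± 0.13, adjusted p = 0.0474), and Scml2, an X-linked polycomb protein of the germline, was past 2-fold lower without passing (6.38 log2 CPM in F121, 3.89 in clone 1 and 4.31 in clone 2, -2.28 ± 0.41, adjusted p = 0.0518). None was called among 15 DNA methylation genes (medians 0.01 and -0.03), 27 interferon and antigen presentation genes (0.09 and -0.05), 9 mitochondrially encoded genes (-0.03 and -0.17), 3 Pramel and Obox genes and 2 of the 2-cell-like genes.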

How the data were processed

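The authors deposited 1 table of 16687 gene symbols by 24 columns, whose values are log2 CPM with a floor of -2.45, as read from the deposited values. Per the submitters' processing notes STAR 2.5.3a, featureCounts and edgeR were used and the builds GRCm38 and mm10 were named, with no role given to either, and per the labels' protocols the libraries were stranded, poly(A)-selected and read single-end. The strand setting of the counting is not given in the sources used here. Stepping the deposited log2 CPM values gave whole reads for 100% of values (within 0.01 of a read), which supplied the read totals, 10241419 to 13346033 in the 8 withdrawal libraries.

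Differences were tested with limma 3.58.1 (lmFit, eBayes with trend) in R 4.3.3 on the log2 CPM of these 8 libraries, fitted as 6 means of genotype and time, so that 2 residual degrees of freedom came from the pairs of clones. The 14335 genes averaging 1 CPM or more entered, and p-values were two-sided with Benjamini-Hochberg adjustment. Values after ± are standard errors of that fit. The p-values measure the spread between the Dusp9+/- lines, which the labels call independent, and F121 has no replicate. The 2 degrees of freedom come from the same 2 lines at 0 h and at 24 h, which the fit treated as separate libraries. The clone numbers were checked across times by correlating clone 1 minus clone 2 at 0 h with that at 24 h (r = -0.365 over 14335 genes, -0.329 without chromosome 12), so they were not taken as pairs. Alternatives were centring, voom on the recovered reads, log2(CPM + 1), other filters, other sources of the spread, leaving out each clone, and the clone number as a block. The calculation was tested on simulated data.

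Named genes were those with at least 4 CPM in F121 or in both clones that were the 10 largest called increases and decreases past 2-fold in both clones, up to 4 members of each list with 2 or more changed members, the 5 largest differences each way between the clones and the 3 largest changes over time each way, besides Dusp9, Xist and Y-linked genes. Other list members are named as examples, chosen after their values were seen, and a few genes are not reported here. The lists were chosen with earlier results of these data known. Promoters (RefSeq, GRCm38.p6) were searched on both strands for the E-box CACGTG, the E2F motif TTCCCGC, the AP-1 motif TGANTCA, the AP-2 motif GCCNNNGGC and its special case GCCNGAGGC, the sterol motif TCACNCCAC, the TATA box TATAAA, the GATA motif AGATAA, the TEAD motif GGAATG, the FoxH1 motif AATNCACA and the SMAD motif GGCGCC.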

Additional observations from a re-analysis of the deposited data

Results flagged for a closer look

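For 14 named genes the change of F121 from 0 h to 24 h had one sign and that of both clones' libraries the other, whichever clone label is paired with which. For Phlda1 the change in F121 was about 0. Each difference of changes was tested with limma and none passed, whereas a block with the clone numbers crossed called 754 genes over the whole table. The values are the clones' mean change minus that of F121, on the log2 scale.

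Higher in the clones' change were Nlrc3 by 3.319 (F121 -1.509, clones 1.81), Igf2 by 2.348 (-1.679 and 0.669), Id3 by 1.907 (-0.781 and 1.126), Nrk by 1.567 (-0.811 and 0.755), Perp by 1.512 (-0.939 and 0.573), Phlda1 by 0.874 (-0.01 and 0.863) and Sfmbt2 by 0.796 (-0.459 and 0.337).

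Lower were Lefty1 with -2.394 (F121 1.119, clones -1.275), Scd2 with -1.96 (0.685 and -1.275), Scd1 with -1.864 (0.54 and -1.325), Dhcr7 with -1.658 (0.093 and -1.564), Zscan5b with -1.121 (0.162 and -0.959), Halr1 with -0.945 (0.601 and -0.344) and Zic5 with -0.681 (0.537 and -0.144). Scd1, Scd2 and Dhcr7 belong to 1 list, Lefty1 and Id3 to another, and Igf2 and Sfmbt2 to the imprinted list.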

How the results depend on the processing

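The count of 366 genes called at 24 h rested on how the spread was estimated. It was 13 with voom on the recovered reads, 0 with no filter on low values (where 0 named genes kept their call), 2049 with the spread of the 3 libraries at 24 h, 723 with the CM libraries added and 730 without chromosome 12 (this last chosen after seeing the data), and leaving out a clone gave 1 to 104. Centring, log2(CPM + 1) and a 4 CPM filter gave 283 to 350. The 758 genes past 2-fold in both clones became 475 with log2(CPM + 1) and 440 with the 4 CPM filter, and 977 to 1420 when 1 clone alone was asked. The X-linked minus autosomal median of 0.228 became 0.184 with no filter. Of the 46 named genes called, 6 kept their call with voom, 23 without clone 1 and 1 (H19) without clone 2. The difference of changes over time called 0 genes with the replicate block (1 residual degree of freedom), and 754 with the numbers crossed, which was chosen after seeing the data. Of 807 values for named genes 10 reversed. Without clone 2 (replicate 2) these were Ddx3y 0.009 (-1.505 without clone 1), Uty 0.183 (-1.278), Mgp 0.641 (-1.131), Cd248 0.328 (-1.419), Acta2 0.015 (-1.614), Lars2 -0.769 (0.948) and Clic5 0.154 (-0.245). Without clone 1 they were Efhc2 -0.734 (0.975 without clone 2) and Thbs2 -0.101 (0.204), and with voom Clic5 0.001. None of these had passed. The cause of these changes was not tested. With 1 F121 library no setting separates a change of the clones from one of that library.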
